A study of Mus musculus with 12 samples.

Results

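The genes described here are the chemokines and chemokine receptors of the mouse, taken as the protein-coding genes whose symbol starts with Ccl, Cxcl, Cx3cl, Xcl, Ccr, Cxcr, Cx3cr, Xcr or Ackr followed by a number. The rule gave 58 genes, 35 ligands and 23 receptors. Of these, 53 were among the 30803 genes tabulated for the WT and GSH libraries, 56 were among the 17558 genes tabulated for the Ctrl and Cas9 libraries, and 51 were in both tables. Cxcl11, which the annotation gives as a polymorphic pseudogene, and Ccrl2, whose symbol has no number after the prefix, were left out.

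The study profiled messenger RNA of 4T1, an established mammary carcinoma line from a BALB/c mouse, and the labels describe every group as cells in culture in medium with serum. The labels give 4 groups of 3 samples by genotype, named WT, GSH, Ctrl and Cas9, and set GSH beside WT and Cas9 beside Ctrl. They do not spell out GSH or name the gene that Cas9 was aimed at, and no further allele or agent is given for any group. Of the 12 samples, 10 were used: all WT, GSH and Cas9 samples and Ctrl 3, while Ctrl 1 and Ctrl 2 were not analysed here. Since the labels do not say that replicates are separate cultures, p-values here speak only to the spread between these libraries, which could be technical.

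Chemokines are small secreted or membrane-bound proteins that direct the migration of cells bearing the matching G protein-coupled receptors. Most recruit leukocytes: CXC ligands with a Glu-Leu-Arg (ELR) motif draw neutrophils through Cxcr2, the interferon-induced CXC ligands draw T and NK cells through Cxcr3, and many CC ligands draw monocytes, macrophages, eosinophils or lymphocytes. Atypical receptors bind chemokines without the usual G protein signal and clear or display them. Carcinoma cells and the leukocytes and stroma of a tumor can each make members of the family, so the ligands and receptors found in a sample depend on the cells in it.

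Levels are given as FPKM, fragments scaled to transcript length and to sequencing depth, which allows comparison between genes within a table. Library totals ran from 18531444 to 30168737 reads across the 6 libraries of WT and GSH, and from 33152215 to 39201544 across the 4 of Ctrl and Cas9. Keratin and epithelial genes (6 genes) summed to 1620 to 1826 FPKM in the first table and to 1750 to 2715 FPKM in the second. Epithelial transcripts were therefore present in both, and whether they came from carcinoma or from other epithelium was not tested. The sums hide differences between genes: among the Ctrl and Cas9 libraries, the keratin gene Krt14 was far higher in Cas9 3 than in the others. The 2 tables differed in leukocyte genes. Pan-leukocyte genes (5 of 5 measured) summed to 0.712 to 1.57 FPKM in WT and GSH, against 277 FPKM in Ctrl 3 and 194 to 305 FPKM in Cas9 libraries. Macrophage and monocyte genes summed to 20.3 to 30.4 FPKM against 2106 to 5296 FPKM. Of the WT and GSH sum, 15.5 to 18.8 FPKM came from Cd68 alone. Neutrophil genes summed to 0.532 to 3.19 FPKM against 152 to 710 FPKM, and endothelial genes to 0.231 to 0.484 FPKM against 57.6 to 133 FPKM. The culture label of the Ctrl and Cas9 samples therefore stands beside abundant transcripts of leukocytes, fibroblasts and endothelium. Among WT and GSH libraries, WT 3, GSH 2 and GSH 3 stood apart by secreted gland proteins, which summed to 304, 436 and 167 FPKM there and to 1.33 to 9.67 FPKM in WT 1, WT 2 and GSH 1.

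In the WT and GSH libraries the family was dominated by neutrophil-attracting ELR-type CXC ligands. They took 82.1% ± 0.75 (SD, n = 3) of the summed FPKM of all family members in WT and 81.1% ± 1.64 (SD, n = 3) in GSH. Of the 53 family genes in this table, 13 had a mean of 1 FPKM or more over the 6 libraries and 40 were below it. Each library held 6 family genes at 10 FPKM or more.

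Cxcl5, an ELR-type ligand of Cxcr2, was listed at 495, 441 and 453 FPKM in WT 1 to 3 and at 454, 398 and 397 FPKM in GSH 1 to 3. Its level lay above that of at least 99.6% of the genes listed above 0 in each of these libraries. Cxcl1, another Cxcr2 ligand, was listed at 239, 224 and 230 FPKM in WT and at 235, 218 and 217 FPKM in GSH. Over the 6 libraries Cxcl5 ran from 397 to 495 FPKM and Cxcl1 from 217 to 239 FPKM, and the WT and GSH ranges overlapped for both. Cxcl3, of the same group, was listed at 38.1, 33.6 and 32.9 FPKM in WT and at 32.2, 29.8 and 28.5 FPKM in GSH. All 3 GSH libraries were below all 3 WT libraries for Cxcl3. Cxcl2 was the lowest of the group that passed 1 FPKM, at 2.29, 2.33 and 1.98 FPKM in WT and at 2.47, 2.28 and 1.90 FPKM in GSH, with overlapping ranges. On the per-length scale the order was therefore Cxcl5, Cxcl1, Cxcl3 and Cxcl2 in every WT and GSH library. Cxcr2, the shared receptor of these ligands, had 0, 0 and 2 reads in WT and 0, 0 and 1 in GSH.

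Promoters were read from the RefSeq promoter table (GRCm38.p6), which matched 44 of the 58 family genes with 48 promoters. The 250 bases before each gene start were searched on both strands for kB, AP-1 and interferon elements. The kB letters were GGGNN followed directly by TTTCC, a form of the binding site of NF-kB factors. The AP-1 letters were TGANTCA, and the interferon letters were GAAANN followed directly by GAAA. Other letter forms of these elements were not searched, so a promoter without a match may still hold one. The kB letters were found in 6 of 48 family promoters (12.5%), against 1.41% of all 32851 promoters. They were in the promoters of Cxcl1, Cxcl2, Cxcl3, Ccl20, Ccl9 and Ccr3. AP-1 letters were in 5 of 48 (10.4%, against 6.75% of all promoters) and interferon letters in 3 of 48 (6.25%, against 2.98%). The 120 bases before the start of Cxcl1, Cxcl2, Cxcl3 and Ccl20 are shown because these 4 ligands passed 1 FPKM in the WT and GSH libraries and hold the kB letters. They are written 5′ to 3′ on the gene's strand, with capitals marking the kB match, which is on the opposite strand for the upstream match of Cxcl1 and for Ccl20.
Cxcl1 (chr5:90891125-90891244, plus strand): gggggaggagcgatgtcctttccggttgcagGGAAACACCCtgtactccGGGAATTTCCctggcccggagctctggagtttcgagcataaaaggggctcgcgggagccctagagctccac
Cxcl2 (chr5:90903779-90903898, plus strand): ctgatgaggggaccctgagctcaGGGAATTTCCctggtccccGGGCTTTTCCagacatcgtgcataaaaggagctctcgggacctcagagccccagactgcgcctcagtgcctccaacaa
Cxcl3 (chr5:90785981-90786100, plus strand): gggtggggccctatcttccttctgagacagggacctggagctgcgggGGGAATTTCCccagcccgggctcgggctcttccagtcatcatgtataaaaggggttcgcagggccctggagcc
Ccl20 (chr1:83116646-83116765, plus strand): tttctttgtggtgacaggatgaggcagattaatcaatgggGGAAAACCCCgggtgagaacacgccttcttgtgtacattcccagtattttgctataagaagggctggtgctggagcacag
Cxcl1, Cxcl2 and Cxcl3 shared the match GGGAATTTCC, which starts 71, 97 and 73 bases before the gene start, respectively. Cxcl1 and Cxcl2 each held a second match that differs in its N positions. A match describes letters and is not a measured binding site, and these coordinates belong to the RefSeq build, not to the one in the submitters' notes.

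Cxcl16, a membrane-bound ligand of Cxcr6, was the third in level, at 69.2, 67.7 and 69.2 FPKM in WT and at 67.0, 69.0 and 68.4 FPKM in GSH. Its 6 values spanned a narrow range, and the groups overlapped. Cx3cl1, the membrane-bound ligand of Cx3cr1, was listed at 18.5, 17.9 and 18.4 FPKM in WT and at 17.2, 18.0 and 17.9 FPKM in GSH, again with overlap. The exons of Cxcl16 share 552 bases with those of Zmynd15 on the opposite strand. The library kit does not mark strand, so reads in that stretch cannot be told apart.

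CC ligands were low beside the CXC ligands. Ccl2, which draws monocytes through Ccr2, was listed at 8.41, 8.27 and 6.97 FPKM in WT and at 6.44, 7.58 and 7.54 FPKM in GSH. Ccl25, the ligand of Ccr9, was listed at 2.50, 2.40 and 2.34 FPKM in WT and at 2.15, 1.99 and 2.04 FPKM in GSH. Every GSH library was below every WT library for Ccl25, whereas the Ccl2 ranges overlapped. Ccl5, a ligand of Ccr1, was listed at 2.66, 2.26 and 1.99 FPKM in WT and at 1.90, 2.04 and 2.25 FPKM in GSH. Ccl20, the ligand of Ccr6, was listed at 1.31, 1.53 and 1.84 FPKM in WT and at 1.28, 1.60 and 1.18 FPKM in GSH. The ranges of both overlapped between the groups.

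Ackr3, an atypical receptor that scavenges Cxcl12, was the receptor with the highest level, at 48.0, 49.6 and 48.7 FPKM in WT and at 45.0, 51.3 and 47.6 FPKM in GSH. Cxcr3, the receptor of Cxcl9 and Cxcl10, was listed at 3.45, 4.16 and 3.80 FPKM in WT and at 3.14, 4.04 and 3.27 FPKM in GSH. Ccr10, the receptor of Ccl27a and Ccl28, was listed at 1.19, 1.17 and 1.35 FPKM in WT and at 0.749, 0.828 and 1.19 FPKM in GSH. The groups overlapped for all 3 receptors, and GSH 3 was the GSH library that reached the WT range for Ccr10. In order of mean FPKM, neighbouring genes whose library ranges overlapped were Cxcl2, Ccl5 and Ccl25 at about 2 FPKM and Ccl20 and Ccr10 below them.

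**Figure D1:**
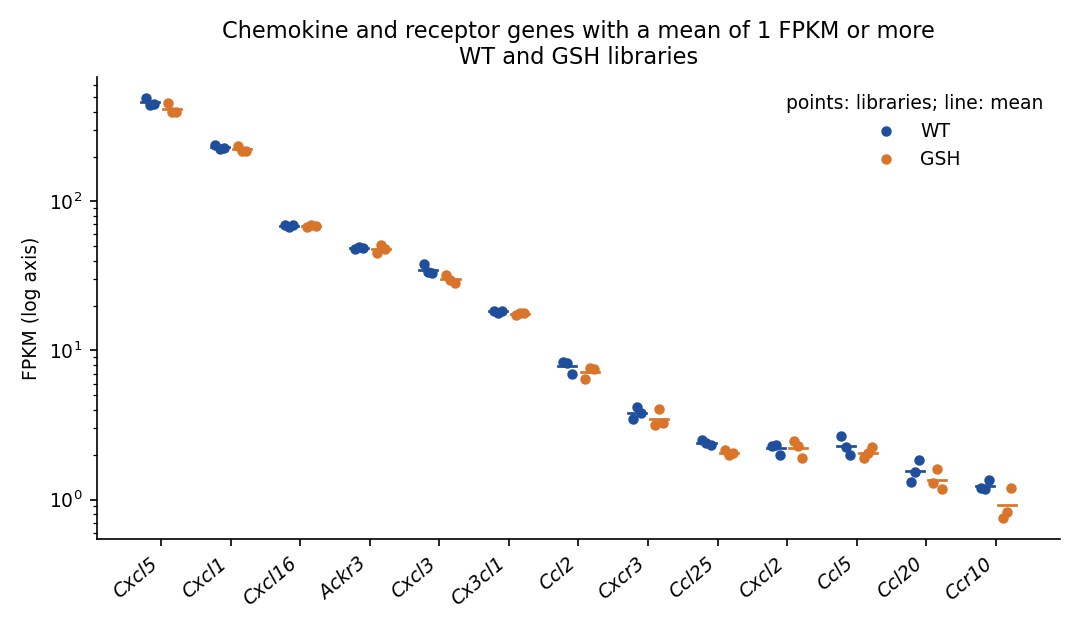
FPKM (log axis) of the 13 chemokine and receptor genes with a mean of 1 FPKM or more in the WT and GSH libraries, ordered by mean. Points are libraries (3 WT, 3 GSH) and short lines are group means; Cxcl5 and Cxcl1 stand at 217 FPKM or more in every library, and the WT and GSH points of a gene lie close together.

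Partners of the expressed ligands and receptors had few reads in the same libraries. Cxcr6, the receptor of Cxcl16, had 2, 3 and 0 reads in WT and 2, 5 and 9 in GSH. Cx3cr1, the receptor of Cx3cl1, had 22, 27 and 10 reads in WT and 28, 13 and 27 in GSH, which are 0.103 to 0.323 FPKM. Ccr2 had 0 to 4 reads, Ccr6 had 0 to 1, Ccr9 had 2 to 7 and Ccr1 had 0 to 1. None of these receptors of the ligands above reached 1 FPKM in a WT or GSH library. The ligands of the expressed receptors were also low. Cxcl12, the ligand of Ackr3 and Cxcr4, had 11 to 26 reads, Cxcl10 had 27 to 43, Cxcl9 had 0 to 3, and Ccl27a had 2 to 10. Cxcr4 itself had 0 to 5 reads. A gene with 0 reads could still be present at up to 0.0994 to 0.162 RPM (reads scaled to the library total), the level of 3 reads in these libraries. These limits cover counting error only.

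GSH was compared with WT by limma on log2(FPKM + 1), with p-values adjusted over all 12283 genes that had a mean of 1 FPKM or more. Of the 13 family genes tested, 1 fell (Ccl25), 0 rose and 12 did not pass the test. Across all genes tested, 37.0% were called, 20.6% higher and 16.4% lower, so the family's share of calls was under the background. Ccl25 was 2.41 ± 0.081 FPKM in WT and 2.06 ± 0.079 FPKM in GSH (SD, n = 3 each), a log2 change of -0.16 (SE 0.05, limma adjusted p = 0.0435). Its exons share 204 bases with Elavl1, a gene on the opposite strand, so part of its reads cannot be told apart from that gene's. The call was kept in 4 of 16 alternatives, and its adjusted p ranged from 0.0154 to 0.398 over them. It was lost whichever library was left out, with limma adjusted p from 0.0638 (without GSH 1) to 0.129 (without WT 1).

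Cxcl3 had the next smallest p, with 34.9 ± 2.85 FPKM in WT and 30.2 ± 1.89 FPKM in GSH (SD, n = 3 each) and a log2 change of -0.20 (SE 0.07, limma adjusted p = 0.0575). Cxcl5 was 463 ± 28.2 FPKM in WT and 416 ± 32.7 FPKM in GSH, a log2 change of -0.15 (SE 0.07, limma adjusted p = 0.121). Ccr10 had a log2 change of -0.22 (SE 0.10, limma adjusted p = 0.126). Over the 16 alternatives Cxcl3 passed in 5, Cxcl5 in 3 and Ccr10 in 1 (without GSH 3). The other 9 family genes had log2 changes between -0.12 and 0.00, with limma adjusted p from 0.275 to 0.974. Fitted changes were below 0 for 12 of the 13 genes, against 45.9% of all genes tested, and their median was -0.11 against 0.02 for all genes tested. Cxcl2, the exception, had a change of 0.00 that turned negative under median-ratio scaling and without mitochondrially encoded genes. Groups did not overlap for 2 of the 13 family genes (Ccl25 and Cxcl3, both lower), against 52.5% of all genes tested. When values were rescaled without mitochondrially encoded genes, Cxcl3 was called as well (limma adjusted p = 0.0371), and the split over all genes moved from 2533 higher and 2014 lower to 1889 higher and 2513 lower.

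The libraries rich in gland proteins were 1 of 3 in WT and 2 of 3 in GSH, so both subsets hold too few libraries for firm tests. Within WT 3, GSH 2 and GSH 3, Ccl25 had a log2 change of -0.14 (SE 0.10) and Cxcl5 was listed at 453 against 398 and 397 FPKM. Within WT 1, WT 2 and GSH 1, Ccl25 had a log2 change of -0.13 (SE 0.09) and Cxcl5 was listed at 495 and 441 against 454 FPKM. Ccl25 was thus lower in GSH in both subsets and passed the test in neither. Ccl2 was above WT 3 in GSH 2 and GSH 3 and below WT 1 and WT 2 in GSH 1, so its direction differed between the subsets. In a fit with a term for these libraries, Ccl25 had a log2 change of -0.14 (SE 0.05, limma adjusted p = 0.0926).

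Lists of genes that act around the family were tested in the same fit, in which 37.0% of all genes were called. Of 7 tested chemokine-related genes outside the symbol rule, 2 rose, 2 fell and 3 did not pass. Mif, a cytokine that can act through CXC receptors, rose from 1171 ± 31.8 to 1392 ± 81.2 FPKM (SD, n = 3 each, limma adjusted p = 0.0126). Cmtm4, a chemokine-like factor family member, rose by 0.20 on the log2 scale and Cklf, the founding member of that family, fell by 0.28 on the log2 scale. Of 19 receptor-signalling genes tested, 7 rose, 1 fell and 11 did not pass. The 8 called are 42.1% of that list, near the share over all genes. Rgs16, which shortens G protein signals, rose from 35.3 ± 0.486 to 52.8 ± 1.21 FPKM (limma adjusted p = 0.000909), and Gnb1, a G protein beta subunit, rose by 0.41 on the log2 scale. Arrb2, an arrestin that desensitises chemokine receptors, was the gene that fell, by 0.30 on the log2 scale.

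The NF-kB list, which holds the pathway's subunits, inhibitors and inducers, had 29 genes tested. Of these, 7 rose, 3 fell and 19 did not pass, with a median log2 change of 0.02. The 10 called are 34.5% of the list, also near the 37.0% over all genes. Chuk, an IkB kinase, fell by 0.26 on the log2 scale, while Tnip1, an inhibitor of the pathway, rose by 0.24 and Il1a, an inducer, rose by 0.21 on the same scale. These 9 named list genes passed the test whichever library was left out and kept their sign in all 16 alternatives. Mif lost its call with no minimum (limma adjusted p = 0.142), and all 9 did within WT 3, GSH 2 and GSH 3 and within WT 1, WT 2 and GSH 1, the fits with 3 libraries.

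The Ctrl and Cas9 libraries held a broader family profile. Of the 56 family genes in this table, 36 had a mean of 1 FPKM or more, 20 were below it, and Ccl19 had 0 reads in all 4 libraries. Inflammatory CC ligands took 45.7% of the summed family FPKM in Ctrl 3 and 48.1% ± 11.3 (SD, n = 3) in Cas9. ELR-type CXC ligands took 1.01% in Ctrl 3 and 3.38% ± 2.07 (SD, n = 3) in Cas9. Receptors took 23.7% in Ctrl 3 and 18.3% ± 5.33 (SD, n = 3) in Cas9, against 6.15% ± 0.372 in WT and 6.47% ± 0.684 in GSH. As RPM, not divided by length, receptors took 44.4% in Ctrl 3 and 34.5% ± 6.95 (SD, n = 3) in Cas9. The tables were normalised separately and use other gene lengths, so shares across them are set side by side without a test.

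**Figure D2:**
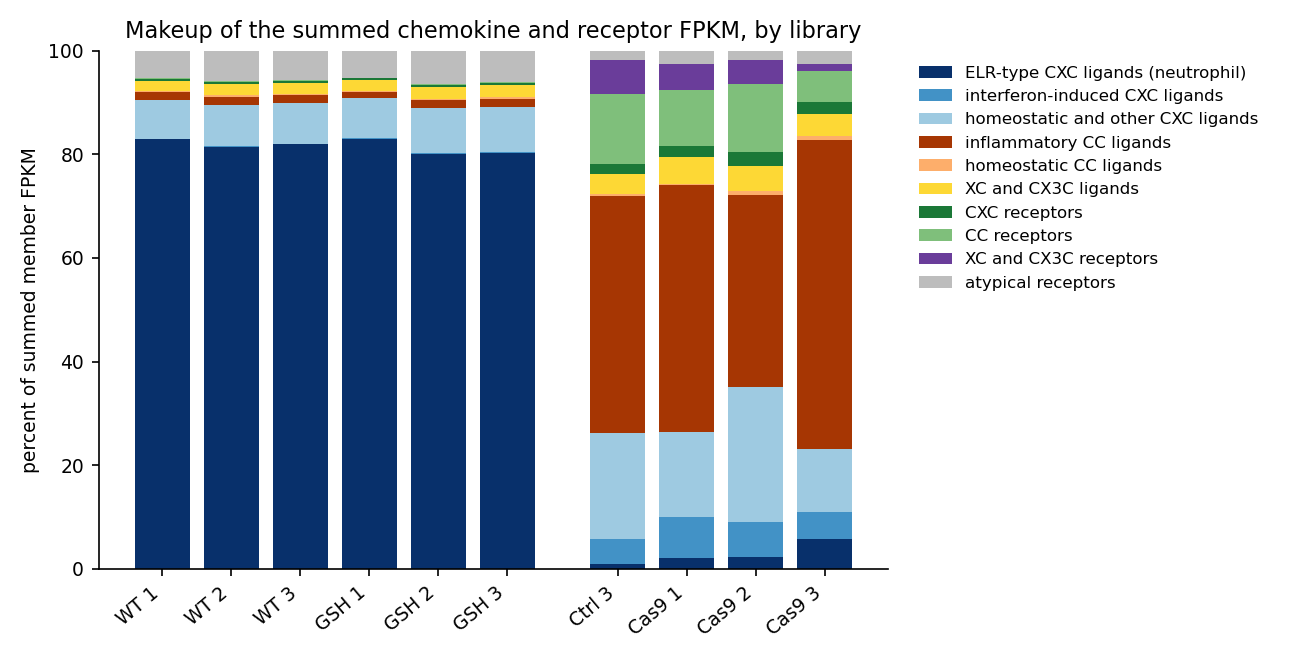
Percent of the summed family FPKM taken by each group of ligands and receptors (stacked colours) in each of the 10 libraries. The 6 WT and GSH bars are mostly ELR-type CXC ligands (80.1% to 83.0%), while the Ctrl 3 and Cas9 bars are led by inflammatory CC ligands (37.0% to 59.7%).

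Among ELR-type ligands, Cxcl1 was listed at 7.77 FPKM in Ctrl 3 and at 10.6, 15.6 and 37.5 FPKM in Cas9 1 to 3. Cxcl2 was listed at 1.79 FPKM in Ctrl 3 and at 6.30, 3.98 and 20.5 FPKM in Cas9. Cxcl3 was listed at 0.601 FPKM in Ctrl 3 and at 1.76, 1.07 and 8.05 FPKM in Cas9. Ctrl 3 was below all 3 Cas9 libraries for these genes, and Cas9 3 was the highest. Cxcl5 followed the same order of groups, at 0.739 FPKM in Ctrl 3 and at 2.196, 2.22 and 5.28 FPKM in Cas9. Their receptor Cxcr2 was listed at 1.16 FPKM in Ctrl 3 and at 1.91, 2.50 and 5.17 FPKM in Cas9. Neutrophil marker genes (6 measured, none at 0) also summed to more in Cas9 3, at 710 FPKM, than in Ctrl 3 (152 FPKM), Cas9 1 (243 FPKM) or Cas9 2 (189 FPKM). S100a8, a calprotectin subunit gene of neutrophils, was at 46.3 FPKM in Ctrl 3 and at 76.9, 63.0 and 239 FPKM in Cas9. S100a9, the largest part of the sum, was at 80.7 FPKM in Ctrl 3 and at 138, 103 and 425 FPKM in Cas9. These genes and Mmp8 were lowest in Ctrl 3, whereas Ctrl 3 lay inside the Cas9 range for Csf3r, Retnlg and Ly6g. Csf3r was at 11.6 FPKM in Ctrl 3 and at 10.7, 11.98 and 13.1 FPKM in Cas9. Ly6g was highest in Cas9 2. Fewer cells of a type and less RNA per cell cannot be told apart in these bulk libraries, and the part of neutrophil content in these values was not tested.

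The interferon-induced ligands of Cxcr3 were also lowest in Ctrl 3. Cxcl9 was listed at 33.4 FPKM in Ctrl 3 and at 52.0, 44.5 and 40.2 FPKM in Cas9, and Cxcl10 at 18.4 FPKM in Ctrl 3 and at 29.8, 20.5 and 25.3 FPKM in Cas9. Cxcr3 was listed at 8.45 FPKM in Ctrl 3 and at 2.89, 10.7 and 12.2 FPKM in Cas9, so Ctrl 3 lay inside the Cas9 range. T and NK cell genes summed to 13.9 FPKM in Ctrl 3 and to 32.5, 33.2 and 20.04 FPKM in Cas9. Not all genes of that list had this order. Ncr1 (0.693 FPKM in Ctrl 3 and 0.247, 0.492 and 0.471 FPKM in Cas9) and Cd4 were highest in Ctrl 3. Klrb1c in Ctrl 3 lay inside the Cas9 range, and the other measured genes of the list were lowest in Ctrl 3. The promoter of Cxcl10 is shown because it holds both an interferon element and an AP-1 element, in capitals, within bases 220 to 61 before its start (RefSeq, GRCm38.p6, written 5′ to 3′ on the gene's strand).
Cxcl10 (chr5:92348950-92349109, minus strand): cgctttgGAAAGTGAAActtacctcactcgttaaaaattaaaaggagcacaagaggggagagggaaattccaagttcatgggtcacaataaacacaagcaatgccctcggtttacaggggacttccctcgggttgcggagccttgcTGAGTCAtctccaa
No other family promoter searched held both of these elements, and the match says nothing of binding. Kb elements of other letter forms were not searched or marked in this stretch.

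The other CXC ligands overlapped between the groups or were highest in Ctrl 3. Cxcl16 was listed at 119 FPKM in Ctrl 3 and at 97.0, 120 and 101 FPKM in Cas9. Cxcl14, a ligand of epithelium and stroma, was listed at 99.6 FPKM in Ctrl 3 and at 71.4, 134 and 46.0 FPKM in Cas9. Cxcl12, the stromal ligand of Cxcr4, was listed at 2.11 FPKM in Ctrl 3 and at 0.356, 1.98 and 1.17 FPKM in Cas9. Cxcl14 and Cxcl12 had their higher values in Ctrl 3 and Cas9 2, as did every fibroblast gene of the list except Pdgfra. The fibroblast genes summed to 1030 FPKM in Ctrl 3 and to 492, 1577 and 470 FPKM in Cas9. Pdgfra was at 9.42 FPKM in Ctrl 3 and at 13.9, 11.6 and 8.21 FPKM in Cas9. Cxcr4 was lowest in Ctrl 3, at 8.09 FPKM against 13.9, 10.0 and 9.77 FPKM in Cas9. Whether stromal content bears on these ligands was not tested.

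Inflammatory CC ligands were the most abundant group in this table per length, led by Ccl8 and Ccl6 in mean FPKM. The order differed between libraries, with Ccl12 above Ccl8 in Cas9 1. As RPM, Ccl9 was above Ccl8 in Ctrl 3 (78.1 against 67.0) and in Cas9 1 (75.7 against 33.5). On that scale inflammatory CC ligands took 25.1% of the family sum in Ctrl 3, under the 26.6% of CC receptors. In Cas9 2 they took 19.4%, under the 25.5% of CC receptors and the 25.9% of homeostatic and other CXC ligands. They were the leading group on both scales in Cas9 1 and Cas9 3. Ccl8 was listed at 131 FPKM in Ctrl 3 and at 65.5, 129 and 398 FPKM in Cas9. Ccl6, a chemokine of myeloid cells, was listed at 140 FPKM in Ctrl 3 and at 213, 99.9 and 145 FPKM in Cas9. Both had Ctrl 3 inside a wide Cas9 range. Ccl12, a ligand of Ccr2, was listed at 98.4 FPKM in Ctrl 3 and at 81.2, 40.3 and 56.8 FPKM in Cas9. Ccl9, a ligand of Ccr1, was listed at 26.0 FPKM in Ctrl 3 and at 25.2, 16.2 and 19.5 FPKM in Cas9. Ctrl 3 was the highest library for both. Ccl2 was listed at 27.1 FPKM in Ctrl 3 and at 30.6, 16.3 and 43.6 FPKM in Cas9. Ccl7, which also draws monocytes, was listed at 15.4 FPKM in Ctrl 3 and at 14.6, 9.11 and 16.9 FPKM in Cas9. Ccl5 was listed at 20.4 FPKM in Ctrl 3 and at 20.2, 23.9 and 12.9 FPKM in Cas9. These 3 genes overlapped between the groups.

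Further inflammatory CC ligands differed in which library was highest. Ccl3, a ligand of Ccr1, was listed at 4.00 FPKM in Ctrl 3 and at 5.14, 4.58 and 16.1 FPKM in Cas9, and Ccl4, another macrophage inflammatory protein, at 4.14 FPKM in Ctrl 3 and at 7.25, 3.43 and 12.4 FPKM in Cas9. Ctrl 3 was below all Cas9 libraries for Ccl3 and inside their range for Ccl4. Ccl11, an eosinophil attractant, was listed at 12.8 FPKM in Ctrl 3 and at 4.17, 10.4 and 3.47 FPKM in Cas9. Ccl24, another Ccr3 ligand, was listed at 6.94 FPKM in Ctrl 3 and at 20.9, 4.16 and 11.9 FPKM in Cas9. Ccl11 was highest in Ctrl 3, whereas Ctrl 3 lay inside the Cas9 range for Ccl24. Ccl22, a ligand of Ccr4, was listed at 4.65 FPKM in Ctrl 3 and at 2.18, 1.70 and 1.91 FPKM in Cas9. Ccl17, the other Ccr4 ligand, was listed at 1.36 FPKM in Ctrl 3 and at 0.592, 1.32 and 1.18 FPKM in Cas9. Ctrl 3 was the highest library for both Ccr4 ligands.

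Ccl1, a ligand of Ccr8, was listed at 1.16 FPKM in Ctrl 3 and at 0.388, 3.11 and 0.514 FPKM in Cas9. Ccl21a, a lymphoid-tissue ligand of Ccr7, was listed at 3.56 FPKM in Ctrl 3 and at 0, 6.85 and 7.12 FPKM in Cas9. Ccl21a has near-identical copies in the genome, so its counts depend on how shared reads were placed. Xcl1, the lymphocyte ligand of Xcr1, was listed at 0.542 FPKM in Ctrl 3 and at 1.46, 4.66 and 0.891 FPKM in Cas9, and Cx3cl1 at 42.3 FPKM in Ctrl 3 and at 52.6, 44.0 and 52.5 FPKM in Cas9. Ctrl 3 was lowest for Xcl1 and Cx3cl1 and inside the Cas9 range for Ccl1 and Ccl21a.

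The myeloid receptors Cx3cr1, Ccr1 and Ccr2 had their highest values in Ctrl 3. As FPKM, Cx3cr1 was the leading receptor in Ctrl 3 and Ccr1 in each Cas9 library. On the RPM scale Cx3cr1 also led in Cas9 1 and Cas9 2, at 194 and 165 RPM. Ccr1 was at 153 and 137 RPM there and led in Cas9 3 alone. Ackr3 was above Ccr2 in Cas9 1 and Cas9 3 and above Cx3cr1 in Cas9 3. Cx3cr1, a receptor of monocytes and macrophages, was listed at 69.3 FPKM in Ctrl 3 and at 51.7, 43.9 and 15.7 FPKM in Cas9. Ccr1 was listed at 56.0 FPKM in Ctrl 3 and at 54.1, 48.3 and 38.5 FPKM in Cas9. Ccr2, the receptor of inflammatory monocytes, was listed at 37.5 FPKM in Ctrl 3 and at 10.2, 33.4 and 6.84 FPKM in Cas9. Cas9 3 was the lowest library for these 3 genes. Macrophage and monocyte genes (9 of 10 measured, none at 0) summed to 4742 FPKM in Ctrl 3 and to 5296, 4000 and 2106 FPKM in Cas9, also lowest in Cas9 3. Of the 9 genes, 7 were lowest in Cas9 3, while Mrc1 and Ms4a7 were lowest in Cas9 2 and Ms4a7 was highest in Cas9 3. Their part in the receptor values was not tested. The receptors not yet described, with a mean of 1 FPKM or more, overlapped between the groups. Ackr3 was listed at 19.9 FPKM in Ctrl 3 and at 26.0, 18.3 and 32.2 FPKM in Cas9. Cxcr6 was listed at 2.39 FPKM in Ctrl 3 and at 2.84, 3.60 and 1.72 FPKM in Cas9, and Ccr7 at 1.99 FPKM in Ctrl 3 and at 0.921, 1.77 and 2.28 FPKM in Cas9.

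**Figure D3:**
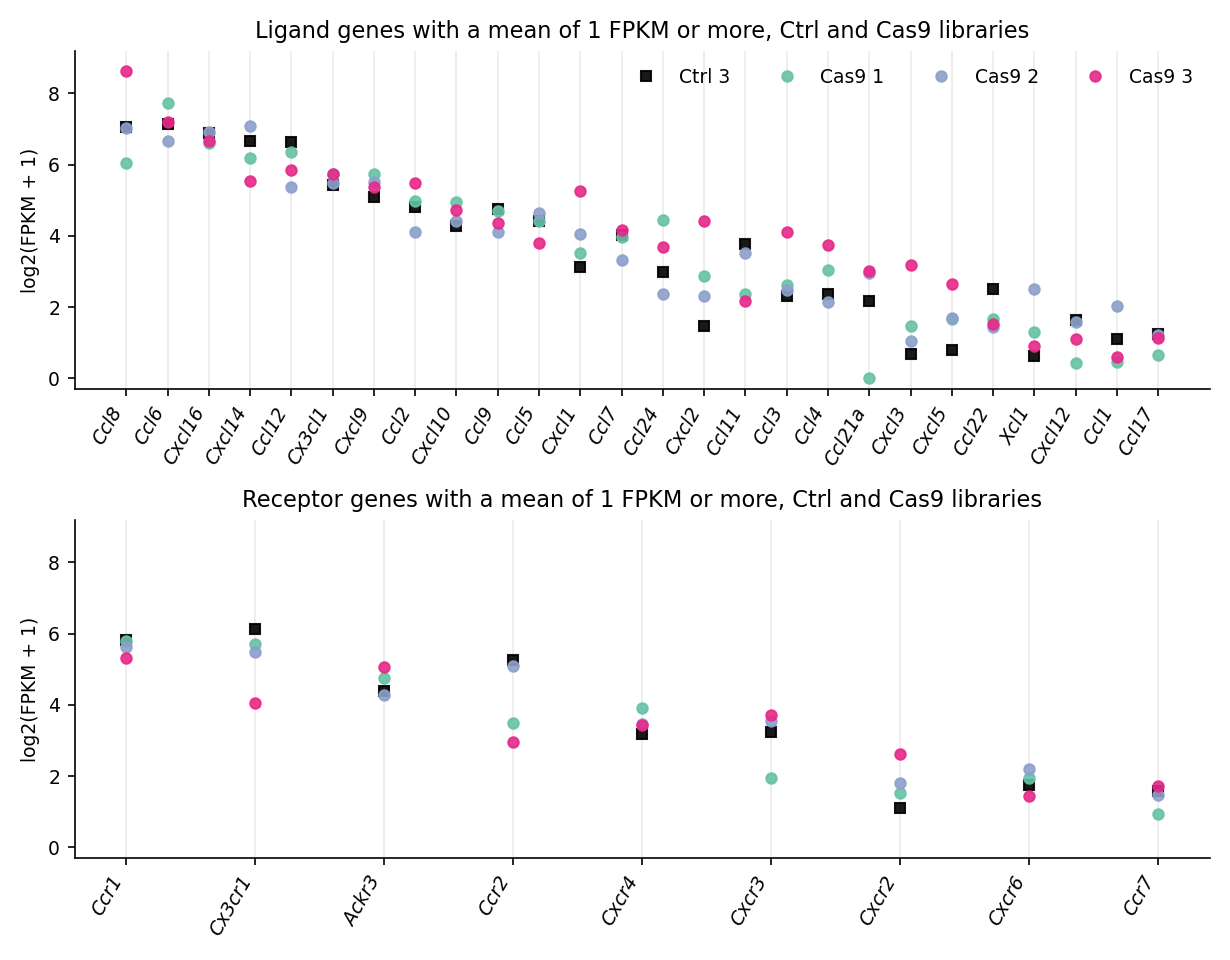
log2(FPKM + 1) of 26 ligand genes (upper panel) and 9 receptor genes (lower panel) with a mean of 1 FPKM or more in the Ctrl and Cas9 libraries, ordered by mean. The square is Ctrl 3 and the circles are Cas9 1 to 3; the circles of a gene are often as far from each other as from the square.

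The spread among the 3 Cas9 libraries was wide for the family. The range over Cas9 libraries on the log2(FPKM + 1) scale had a median of 1.09 for the 36 family genes, against 0.29 for the 11407 genes tested. It passed 1 for 19 of 36 family genes (52.8%), against 6.45% of all genes tested. In WT the same range had a median of 0.16 for the 13 family genes against 0.10 for all genes tested, and in GSH 0.19 against 0.11. The highest Cas9 library was Cas9 3 for 14 family genes, Cas9 1 for 12 and Cas9 2 for 10.

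Cas9 was compared with Ctrl 3 by the same limma fit, in which the spread comes only from the 3 Cas9 libraries (2 residual degrees of freedom). Of the 36 family genes tested, 0 rose and 0 fell, and 0.0% of the 11407 genes tested were called in either direction. At an unadjusted p under 0.05 there were 2 family genes (Ccl22 and Cxcl5) and 210 genes in all (1.84%), and voom on recovered reads also called 0. The limma adjusted p was 0.99998 for each of the 36 genes. Ctrl 3 lay outside the range of the Cas9 libraries for 21 of the 36, with 11 higher and 10 lower in Cas9. Over all genes tested, 42.6% lay outside, 20.1% higher and 22.5% lower in Cas9. Of the 36 changes, 18 were below 0, against 52.8% of all genes tested, and their median was -0.02 against -0.01 for all genes. Their median absolute size was 0.41 against 0.12.

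The fitted log2 changes with the largest sizes were 1.72 (SE 0.83) for Cxcl2, -1.41 (SE 0.84) for Ccr2, 1.22 (SE 0.87) for Cxcl3, 1.21 (SE 0.46) for Cxcl5, 1.15 (SE 0.68) for Cxcl1 and -1.11 (SE 0.57) for Ccl11. Without Cas9 3, Cxcl2 had a change of 1.11, Cxcl5 of 0.88, Cxcl1 of 0.66 and Cxcl3 of 0.58, so the sizes rested in part on that library. Ccl22 had a change of -0.95 (SE 0.20), and -0.95 without Cas9 3. Of the list genes around the family, 0 of 9 chemokine-related genes, 0 of 29 receptor-signalling genes and 0 of 32 NF-kB genes passed the test. The smallest p in each list belonged to Ccrl2, an atypical receptor of chemerin, at 2.93 FPKM in Ctrl 3 and 4.95 ± 0.644 FPKM in Cas9, to Plcb3, a phospholipase C, and to Il1r1, a receptor of interleukin 1.

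**Figure D4:**
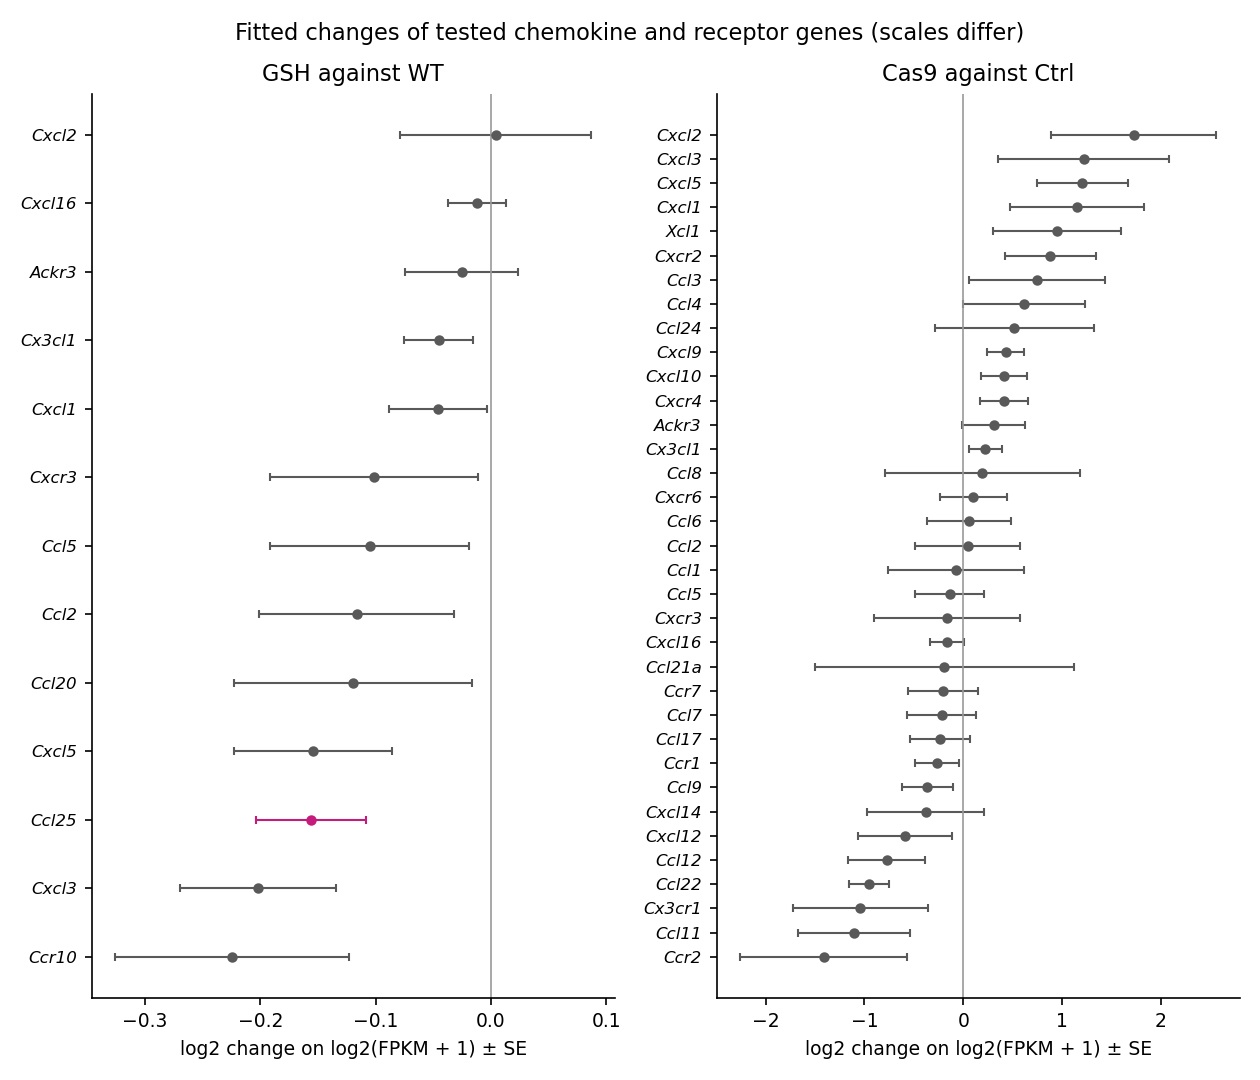
Fitted log2 changes on the log2(FPKM + 1) scale with standard errors for the 13 family genes tested in GSH against WT (left) and 35 of the 36 tested in Cas9 against Ctrl (right), on different axis scales. The magenta point (Ccl25, -0.16) is the gene that passed the test, and no point on the right passed it.

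Family genes below 1 FPKM in the Ctrl and Cas9 table included receptors and ligands of the genes above. Ccr3 had 15 to 62 reads, Ccr4 had 6 to 24, Ccr8 had 0 to 8 and Ccr6 had 3 to 33 over the 4 libraries. Xcr1, a marker receptor of cross-presenting dendritic cells, was listed at 0.493 FPKM in Ctrl 3 and at 0.785, 0.928 and 0.110 FPKM in Cas9. Ccl25, called lower in GSH, was listed at 0.877 FPKM in Ctrl 3 and at 1.03, 0.719 and 0.744 FPKM in Cas9. Ccr10, at about 1 FPKM in the other table, had 0 reads in Ctrl 3, Cas9 1 and Cas9 3 and 1 read in Cas9 2, where 0 reads allow up to 0.0765 to 0.0866 RPM.

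Across the 2 tables, RPM are set side by side without a test, since gene lengths differ and FPKM would differ with them. Of the 51 genes in both tables, 29 were higher in every Ctrl and Cas9 library than in any WT or GSH library, 7 were lower in every one, and 15 overlapped. Over all 16231 genes in both tables, 67.6% did not overlap, 37.2% higher and 30.3% lower in the Ctrl and Cas9 libraries, so the family's 36 of 51 (70.6%) were near that share in total. The 7 higher in WT and GSH libraries were Cxcl5, Cxcl1, Cxcl3, Cxcl16, Ackr3, Ccl25 and Ccr10. Cxcl16 turned direction with the unit, since the lengths used for it were 3021 and 1493 bases: it was 202 to 209 RPM against 145 to 179 RPM, but 67.0 to 69.2 FPKM against 97.0 to 120 FPKM. As FPKM, 32 genes were higher in the Ctrl and Cas9 libraries and 6 lower. Cxcl5 had a median of 833 RPM in WT and GSH libraries and of 3.66 RPM in Ctrl and Cas9 libraries, Cxcl1 of 426 and 12.5 RPM, and Cxcl3 of 114 and 1.44 RPM. Cxcl2, of the same ligand group, overlapped, with medians of 4.72 and 5.57 RPM, and Cx3cl1 overlapped at 70.5 and 75.9 RPM. Among the 29 higher in Ctrl and Cas9 libraries were Cxcl9, Ccl6 and Cx3cr1, with medians of 123, 204 and 179 RPM there. Their medians in WT and GSH libraries were 0, 0.74 and 0.965 RPM. The table, the annotation used for counting and the leukocyte content all differ between these libraries and cannot be told apart.

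**Figure D5:**
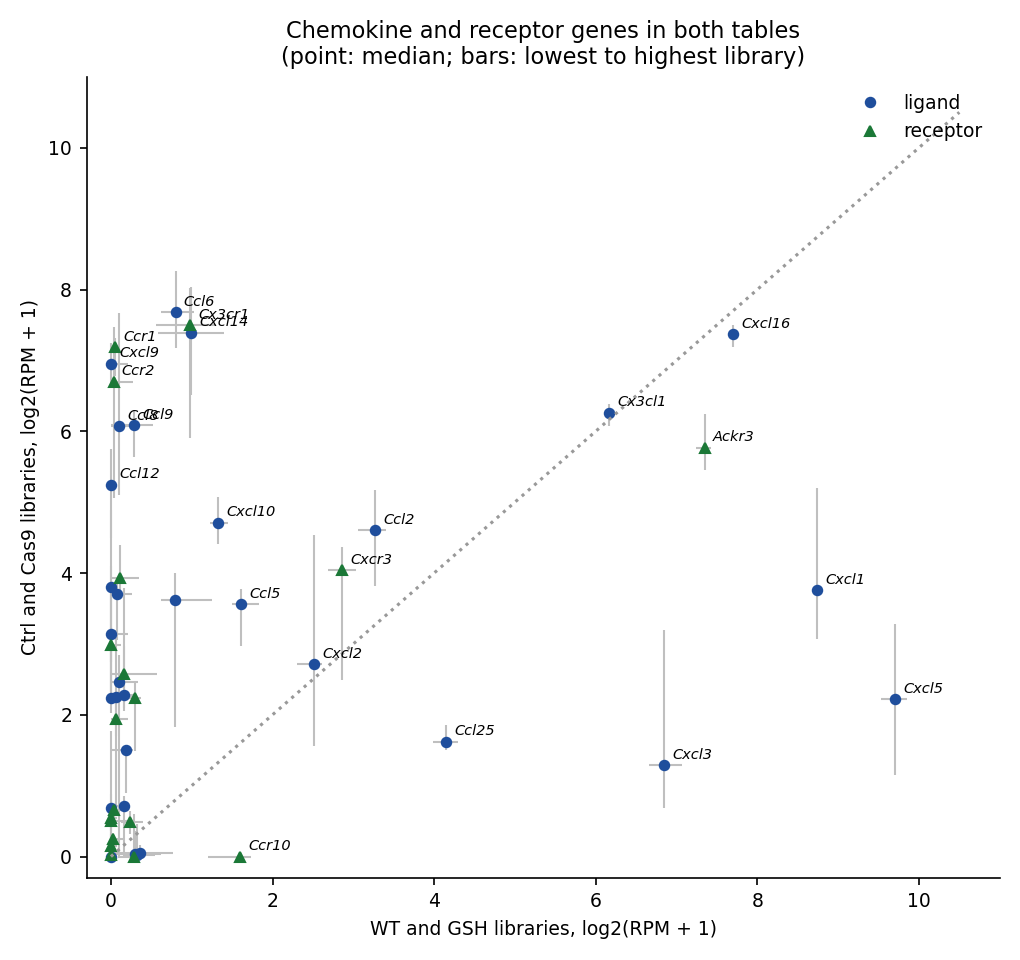
log2(RPM + 1) of 50 of the 51 chemokine and receptor genes in both tables, with the WT and GSH libraries on the horizontal axis and the Ctrl and Cas9 libraries on the vertical axis. Points are medians, bars run from the lowest to the highest library, and the dotted line marks equal levels; Cxcl5, Cxcl1 and Cxcl3 lie far below it, and leukocyte ligands and receptors lie near the vertical axis.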

How the data were processed

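RNA sequencing values of 10 libraries were used, grouped by the sample titles. Library preparation used the NEBNext Ultra RNA kit, per the labels' protocols. HTSeq (0.6.0), HISAT2 (2), Bowtie2 (2.2.3) and mm8 are listed in the submitters' processing notes, without roles. The deposited files state no unit; their values were taken as FPKM, which the authors computed with a library total, separately for the WT and GSH table and the Ctrl and Cas9 table. FPKM move in whole multiples of 1 read, and whole reads were recovered for 100.00% and 99.98% of genes above 0, taking values within 0.01 read for most genes and at most 0.15. Where these steps left a common factor open, reads were raised to a multiple, in 32 and 1426 genes. For genes of few reads it was the multiple nearest an annotated length. In the Ctrl and Cas9 table, that length alone set the count of a gene seen in 1 library. Recovered reads gave totals, RPM and voom. Gene models were GENCODE M21. The design named a count model for count files; as the values were not counts, limma 3.58.1 (R 4.3.3, lmFit and eBayes with trend) was run on log2(FPKM + 1), pseudocount 1, two-sided, with a group term alone; p-values were adjusted (Benjamini-Hochberg, threshold 0.05) over genes whose mean reached 1 FPKM. Fold changes on this scale understate low genes. The fit was checked on simulated data. Alternatives were another pseudocount and minimum (0.1), no minimum, other scalings, voom, a replicate block, a term for gland-protein libraries and leaving out libraries; the subsets by gland proteins and the FPKM counts across tables were added after seeing the data. Every family gene with a mean of 1 FPKM or more in a table was named there, except 1 that enters the counts and sums but is not reported here, with the 3 smallest-p genes of each pathway list, not all printed. Members and lists were chosen with earlier results of these data known. Promoter sequences are RefSeq's; among the genes with no entry were Ccl2, Ccl4, Ccl5, Ccl7, Ccl11, Ccl24, Ccl26, Ccr7, Ccr10, Cxcl5, Cxcl16, Cxcl17 and Cxcr5.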

Additional observations from a re-analysis of the deposited data

How the results depend on the processing

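The GSH against WT count of family genes called lower (1) became 0 with a minimum mean of 0.1 FPKM, with no minimum, with a term for WT 3, GSH 2 and GSH 3, within WT 3, GSH 2 and GSH 3, and within WT 1, WT 2 and GSH 1. It became 2 with median-ratio scaling, when rescaled without mitochondrial genes and with the replicate block, and 3 with voom on recovered reads. Leaving out 1 library gave 0 to 2. Over all genes, leaving out 1 library gave 1663 to 2089 called higher and 1335 to 1631 called lower, the lowest without WT 1. Within WT 3, GSH 2 and GSH 3, 0 were called higher and 0 lower, and within WT 1, WT 2 and GSH 1, 3 higher and 1 lower. Fewer samples enter these last fits. The share of ELR-type CXC ligands was 74.3% in WT, 73.0% in GSH and 0.581% in Ctrl 3 as RPM of recovered reads, which are not divided by gene length. On that scale receptors took 9.13% in WT, 9.61% in GSH, 44.4% in Ctrl 3 and 34.5% in Cas9, and inflammatory CC ligands 0.785%, 0.765%, 25.1% and 29.4%. Changes of sign in GSH were for Cxcl2 under median-ratio scaling (-0.0087) and without mitochondrial genes (-0.022), and for Ackr3 (0.021), Ccl2 (0.10) and Ccl5 (0.071) within WT 3, GSH 2 and GSH 3 and Cxcl1 (0.025) within WT 1, WT 2 and GSH 1. Leaving out 1 library also changed signs in GSH for Cxcl2 (-0.052 to 0.076) and Ackr3 (-0.074 to 0.019). In Cas9 it did so for Ccl1 (0.14 to 0.21), Ccl2 (-0.27 to 0.42), Ccl21a (-0.70 to 0.81), Ccl5 (-0.32 to 0.10), Ccl6 (-0.21 to 0.33), Ccl7 (-0.39 to 0.023), Ccl8 (-0.51 to 0.79), Ccr7 (-0.37 to 0.012), Cxcr3 (-0.48 to 0.40) and Cxcr6 (-0.067 to 0.31). None of these sign changes concerned a called gene, and the cause was not tested. The replicate block called Cxcl3 and Cxcl5 in place of Ccl25. Same-numbered WT and GSH libraries correlated at 0.48, -0.11 and 0.21 in their deviations over genes, so the numbers were not taken as pairs. No paired analysis was possible because Ctrl and Cas9 share 1 number. With 1 Ctrl library and 2 residual degrees of freedom, Cas9 against Ctrl cannot show how Ctrl samples vary.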

Other observations

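Some family genes below the tested minimum had few reads that differed between libraries. Cxcl14 had 11, 20 and 12 reads in WT and 30, 31 and 26 in GSH, and the groups did not overlap as FPKM, at 0.274, 0.539 and 0.306 against 0.544, 0.898 and 0.768. Cxcl12 and Ccl21a were likewise higher in every GSH library than in any WT library. Ccl6 went the other way, at 0.533, 0.576 and 0.442 FPKM in WT and 0.295, 0.383 and 0.361 FPKM in GSH. Among all genes tested, 52.5% did not overlap, and the share among genes below the minimum was not computed. Ccl28, a mucosal and glandular ligand of Ccr10, had 1, 2 and 15 reads in WT and 0, 9 and 10 in GSH. Its higher values were in WT 3, GSH 2 and GSH 3, the libraries rich in secreted gland proteins. Cxcl17, another mucosal ligand, had 1, 8 and 4 reads in WT and 0, 5 and 10 in GSH and did not follow that division. In the Ctrl and Cas9 table, Cxcl15 had 19 reads in Cas9 1 and 0 in the other 3 libraries, and Ackr4 had 18 reads in Cas9 3 and 0 in the others. The counts of 19 and 18 rest on the annotated length taken, not on read steps. These genes were picked after their values were seen and were not tested.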
